A study of Mus musculus with 9 samples.

Results

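The 7 genes of extracellular adenosine and nucleotide handling described here were measured in mouse regulatory T cells (Tregs): Entpd1, Nt5e, Adora2a, Ada, Dpp4, P2rx7 and P2rx4. They were chosen by name, with earlier results of these data known, and are 7 of the 23420 genes of the deposited expression table. All 7 passed the filter on low values, a mean normalized value of at least 10 over all libraries, which 11357 genes passed. The study was an RNA-seq profiling of Tregs in collagen-induced arthritis, a model in which mice immunised against collagen develop joint inflammation. The 9 libraries fall into 3 groups of 3: synovial Tregs of arthritic mice, Tregs of the lymph nodes draining their joints, and Tregs of the same nodes in control mice. All mice were labelled WT, the arthritic groups carried the collagen-induced arthritis label and the control group was labelled as having no treatment. Strain, age, sex and time after induction are not given in the sources used here. Whole paws and nodes were digested, and Tregs were taken as cells positive for a YFP reporter of Foxp3. Joint Tregs of untreated mice were not analysed here, so the tissue and the inflammation of the joint cannot be told apart. The titles number the mice, and synovial and node libraries from arthritic animals share numbers 1 to 3.

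Cells under stress release ATP, which acts as a danger signal through P2X and P2Y receptors. The surface enzymes CD39 (Entpd1) and CD73 (Nt5e), a known suppressive pair of mouse Tregs, convert ATP through AMP to adenosine, which acts on T cells mainly through the receptor encoded by Adora2a and raises cyclic AMP. Adenosine deaminase (Ada) inactivates adenosine and docks on CD26 (Dpp4) in humans, while P2rx7 is an ATP-gated channel whose activation can kill mouse Tregs.

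The promoters of Entpd1, P2rx7 and P2rx4 are shown as examples. Entpd1 and P2rx4 were higher in synovial Tregs, whereas P2rx7, the neighbour of P2rx4 on the same strand of chromosome 5, was lower. Nt5e and Adora2a were higher too and are not shown, so the 3 sequences do not stand for all the genes that differed. The sequences are RefSeq's, build GRCm38.p6, plus strand, 5′ to 3′, ending at the base before the start of the gene; capitals mark the half-site of the cyclic AMP response element (TGACG or its reverse, CGTCA), the AP-1 site (TGANTCA) and the GC box (GGGCGG or CCGCCC), searched on both strands.
Entpd1, chr19:40612116-40612365: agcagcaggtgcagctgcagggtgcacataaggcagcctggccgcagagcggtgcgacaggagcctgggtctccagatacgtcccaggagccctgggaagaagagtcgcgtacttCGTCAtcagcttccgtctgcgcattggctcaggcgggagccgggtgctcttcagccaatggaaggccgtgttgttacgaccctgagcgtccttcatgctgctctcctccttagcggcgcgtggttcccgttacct
P2rx7, chr5:122643677-122643910: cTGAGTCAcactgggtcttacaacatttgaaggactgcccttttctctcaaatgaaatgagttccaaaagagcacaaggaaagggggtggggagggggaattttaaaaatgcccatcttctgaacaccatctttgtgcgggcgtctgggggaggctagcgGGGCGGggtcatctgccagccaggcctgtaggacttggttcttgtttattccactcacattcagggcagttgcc
P2rx4, chr5:122707294-122707543: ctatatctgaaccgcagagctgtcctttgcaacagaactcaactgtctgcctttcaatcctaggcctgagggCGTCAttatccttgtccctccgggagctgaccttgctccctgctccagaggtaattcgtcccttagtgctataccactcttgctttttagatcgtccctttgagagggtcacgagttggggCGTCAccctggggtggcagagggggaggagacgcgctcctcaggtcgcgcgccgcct
The Entpd1 window holds a single CRE half-site, and a second RefSeq start inside the gene also has a single half-site in the 250 bases before it. The P2rx4 window holds 2 half-sites, 178 and 57 bases before the start. The P2rx7 stretch, cut to 234 bases at the start of the gene, holds none. Its capitals are an AP-1 site at its left end and a GC box. The full 250 bases before the RefSeq start of P2rx7 hold another GC box, 11 bases before that start. A second RefSeq start of P2rx7 has none of the 3 motifs in the 250 bases before it. RefSeq entries matched 6 of the 7 genes, all but Adora2a. The 250 bases before the RefSeq start of Nt5e hold 4 GC boxes, some of them overlapping, and that of Ada holds 1, with no half-site or AP-1 site in either, and the Dpp4 window holds none of the 3 motifs. Of all 32851 RefSeq promoter windows of this length, 17.8% hold a CRE half-site, 6.75% an AP-1 site and 32.7% a GC box, and a match describes the letters only.

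The libraries held 11300406 to 12855435 reads, recovered from the normalized values, with 11770 to 13118 genes detected, and 3 reads corresponded to 2.61 to 3.52 normalized units. Treg markers were present in every library. Foxp3 was 443, 413 and 538 in synovial Tregs, 222, 294 and 291 in node Tregs of arthritic mice, and 224, 170 and 404 in those of control mice. The 8 Treg and CD4 T cell markers summed to 150030 to 159434 in synovial Tregs. Their sums were 66679 to 74360 in node Tregs of arthritic mice and 73568 to 75841 in those of control mice. Of the 8, 4 were called higher in synovial than in arthritic node Tregs and 6 higher than in control node Tregs, with none lower. Transcripts of other cells were found in part. Of the macrophage markers, Mertk had no read in any library, but Cd14 had 70.5, 196 and 66.3 normalized reads in synovial Tregs, against 0, 0 and 14.9 in node Tregs of arthritic mice and none in those of control mice. Lyz2, in contrast, had 14.3, 48.1 and 0 in synovial Tregs. It had 190, 8.66 and 307 in node Tregs of arthritic mice and 228, 56.0 and 315 in those of control mice. Of the 6 endothelial markers, Kdr and Emcn had no read in any library, whereas Cdh5, Vwf and Tek had reads in 1 synovial library each, with the highest value for Tek, 23.6 in synovial library 3. Cdh5 was at 1.10 in synovial library 1 and also at 2.89 in node library 2 of the arthritic mice. Synovial library 3 stood apart in fibroblast transcripts: the summed level of the 8 fibroblast markers was 78.2, 34.1 and 1738 in the synovial libraries, 12.5 to 159 in the node libraries of arthritic mice and 8.03 to 35.6 in those of control mice. Of 10 genes known to rise during tissue digestion, such as Fos, Junb and Hspa1a, 8 were called higher in synovial than in arthritic node Tregs and 9 higher than in control node Tregs; their sums were 83451 to 124630 in synovial Tregs, against 8201 to 11658 in node Tregs of arthritic mice and 8869 to 11627 in those of control mice. Their part in the differences below was not tested.

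All 7 genes differed between synovial and node Tregs of arthritic mice: Entpd1, Nt5e, Adora2a and P2rx4 were higher in the synovium, and Ada, Dpp4 and P2rx7 were lower. The test was limma on log2(normalized value + 1) with Benjamini-Hochberg adjustment over all 11357 genes and a threshold of 0.05. The background is high, since 33.8% of all genes tested passed in this comparison, 17.9% higher and 15.9% lower. Because the 7 were chosen with earlier results of these data known, their number of calls is no test of the list. For every gene but P2rx7 the 2 groups of libraries did not overlap, as for 48.2% of all genes. Against node Tregs of control mice the same 4 genes were higher and the same 3 lower, where 40.1% of all genes passed, 21.6% higher and 18.5% lower. Both comparisons use the same synovial libraries. In bulk RNA, fewer cells of a type and less RNA per cell cannot be told apart.

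**Figure D1:**
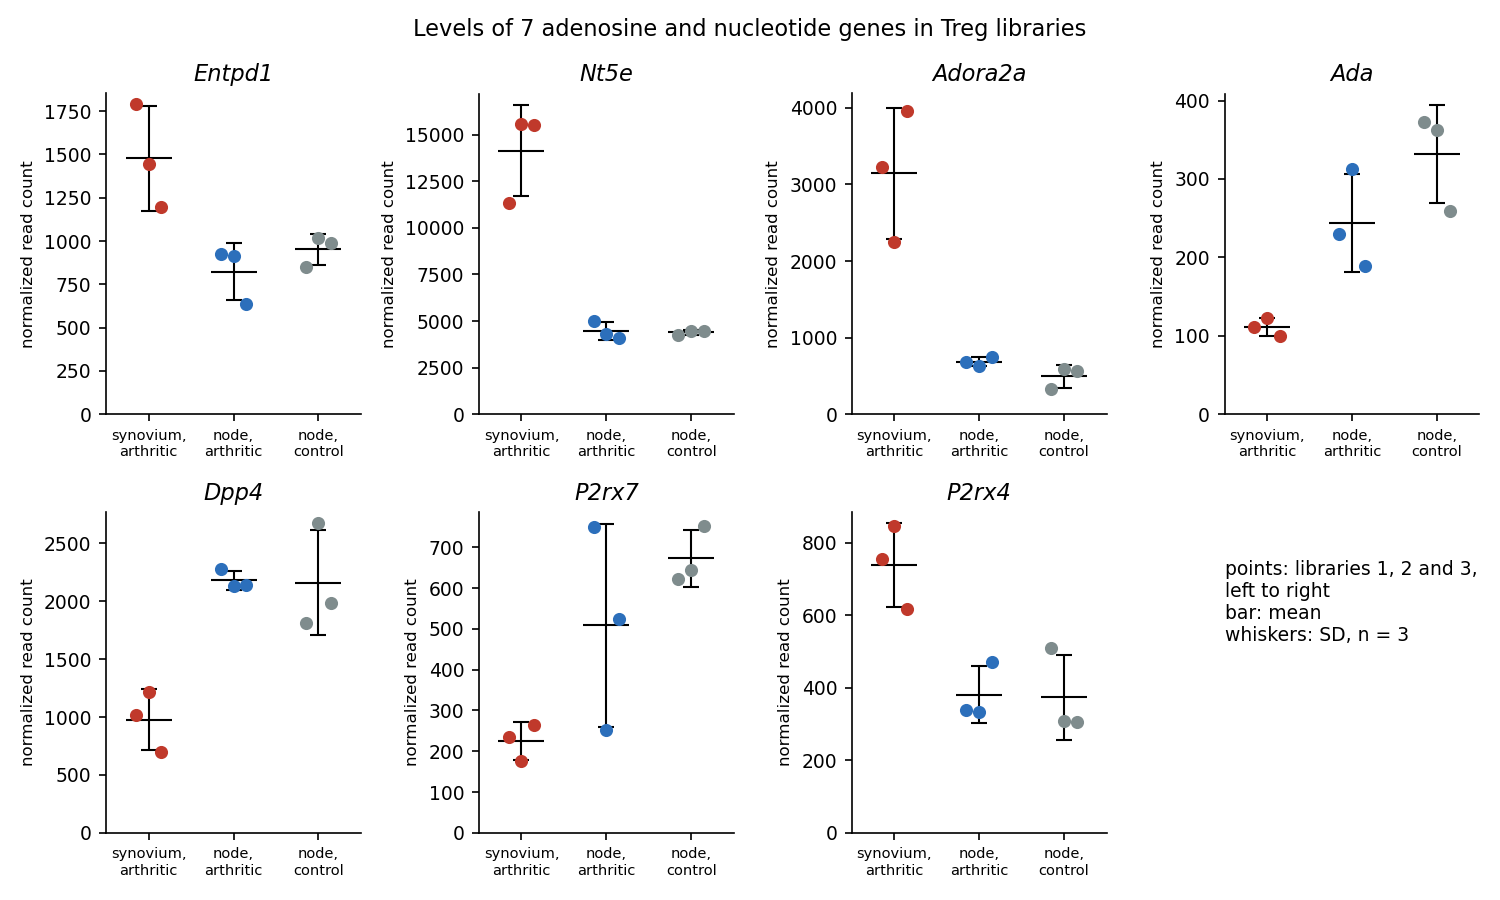
Normalized read count (y axis, linear, from 0) of each of the 7 genes in synovial Tregs, arthritic node Tregs and control node Tregs. Points are libraries 1, 2 and 3 from left to right, the bar is the mean and the whiskers the SD (n = 3). Synovial libraries lie apart from all node libraries for every gene except P2rx7, where node library 2 of the arthritic mice, at 252, lies within the synovial range of 175 to 265.

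Entpd1 encodes CD39, the ectoenzyme that removes phosphates from extracellular ATP and ADP (GRCm38 chr19:40612366-40741602, plus strand). Its normalized read count was 1794, 1443 and 1195 in synovial Tregs, 925, 912 and 635 in node Tregs of arthritic mice, and 848, 1020 and 988 in node Tregs of control mice. Every synovial library lay above every node library, but the gap between the lowest synovial value and the highest control value was small, and synovial library 1 was well above the other two. Means were 1477 ± 301 in synovial Tregs, 824 ± 164 in node Tregs of arthritic mice and 952 ± 91.4 in those of control mice (SD, n = 3 each). Entpd1 was 1.79-fold higher in synovial than in node Tregs of arthritic mice (log2 fold change 0.84, SE 0.19, limma adjusted p = 0.0043), and 34.5% of all genes changed by more. Against control nodes the log2 fold change was 0.62 (SE 0.19, limma adjusted p = 0.0201), a call that did not hold without synovial library 1 (adjusted p = 0.092) or control library 1 (0.0718).

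Nt5e encodes CD73, which turns AMP into adenosine (chr9:88327197-88372092, plus strand). It was the most abundant of the 7 genes, with 11325, 15585 and 15498 in synovial Tregs, 5018, 4329 and 4104 in node Tregs of arthritic mice, and 4242, 4481 and 4451 in those of control mice. The lowest synovial library was more than double the highest node library, and the node groups interleaved. Means were 14136 ± 2435 in synovial Tregs, 4483 ± 476 in node Tregs of arthritic mice and 4391 ± 131 in those of control mice (SD, n = 3 each). The difference between synovial and arthritic node Tregs was 3.13-fold (log2 fold change 1.65, SE 0.13, limma adjusted p = 1.57e-06), and against control nodes it was 3.19-fold (log2 fold change 1.67, adjusted p = 1.04e-06). Without synovial library 3, whose fibroblast markers summed to 1738, the log2 fold change against arthritic nodes was 1.57 (limma adjusted p = 3.08e-05); the part of fibroblast transcripts in the Nt5e level was not tested.

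Per kilobase of exon, Nt5e exceeded Entpd1 in every library. The ratio of their per-kilobase levels was 4.10, 7.01 and 8.42 in synovial Tregs, 3.52, 3.08 and 4.19 in node Tregs of arthritic mice, and 3.24, 2.85 and 2.92 in those of control mice. It averaged 6.51 ± 2.20 in synovial Tregs, 3.60 ± 0.56 in node Tregs of arthritic mice and 3.01 ± 0.21 in those of control mice (SD, n = 3 each). Synovial library 1 fell inside the range of the arthritic nodes, so the groups overlapped in this ratio.

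Adora2a encodes the high-affinity adenosine receptor that signals through Gs and cyclic AMP (chr10:75316877-75334784, plus strand). It was 3231, 2254 and 3958 in synovial Tregs, 676, 631 and 752 in node Tregs of arthritic mice, and 324, 597 and 566 in node Tregs of control mice. Both node groups lay far below all synovial libraries, with control library 1 the lowest of all. Means were 3148 ± 855 in synovial Tregs, 686 ± 61.2 in node Tregs of arthritic mice and 496 ± 149 in those of control mice (SD, n = 3 each). This was the largest difference among the 7 genes: 4.47-fold against arthritic nodes (log2 fold change 2.16, SE 0.24, limma adjusted p = 3.14e-05) and 6.40-fold against control nodes (log2 fold change 2.68, SE 0.24, adjusted p = 4.09e-06). In the comparison with arthritic nodes, 9.70% of all genes changed by more. Without synovial library 3 the first value was 1.98 (limma adjusted p = 0.000388).

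Ada encodes adenosine deaminase, which converts adenosine to inosine (chr2:163726584-163750239, minus strand). Its level was low, at 111, 122 and 100.01 in synovial Tregs, 230, 313 and 190 in node Tregs of arthritic mice, and 372, 363 and 259 in those of control mice. Synovial values were tightly grouped below all node values, while the node groups overlapped. Means were 111 ± 11.1 in synovial Tregs, 244 ± 62.7 in node Tregs of arthritic mice and 332 ± 62.7 in those of control mice (SD, n = 3 each). Ada was 2.15-fold lower in synovial than in arthritic node Tregs (log2 fold change -1.10, SE 0.28, limma adjusted p = 0.00894) and 2.94-fold lower than in control node Tregs (log2 fold change -1.55, adjusted p = 0.000846).

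Dpp4 encodes CD26, a surface peptidase that anchors adenosine deaminase on human T cells, whereas mouse CD26 is known not to bind the enzyme well (chr2:62330073-62412231, minus strand). It was 1020, 1219 and 696 in synovial Tregs, 2278, 2128 and 2141 in node Tregs of arthritic mice, and 1817, 2673 and 1988 in those of control mice. All node values exceeded all synovial values, and the control values spanned those of the arthritic nodes. Means were 978 ± 264 in synovial Tregs, 2183 ± 83.3 in node Tregs of arthritic mice and 2159 ± 453 in those of control mice (SD, n = 3 each). Dpp4 was 2.29-fold lower in the synovium than in arthritic nodes (log2 fold change -1.19, SE 0.20, limma adjusted p = 0.000552) and 2.23-fold lower than in control nodes (log2 fold change -1.16, adjusted p = 0.000555). A transcript on the other strand, Gm13561, overlaps 3.67% of its exon bases.

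P2rx7 encodes the ATP-gated channel that in mouse Tregs is also opened after ADP-ribosylation by ART2.2 (chr5:122643911-122691432, plus strand). It was 235, 175 and 265 in synovial Tregs, 750, 252 and 524 in node Tregs of arthritic mice, and 622, 645 and 753 in those of control mice. Node library 2 of the arthritic mice lay among the synovial values, so the 2 groups overlapped, whereas all control values were far above the synovial ones. Means were 225 ± 45.9 in synovial Tregs, 509 ± 249 in node Tregs of arthritic mice and 674 ± 69.9 in those of control mice (SD, n = 3 each). The log2 fold change against arthritic nodes was -1.06 (SE 0.33, limma adjusted p = 0.0268). This call did not hold without synovial library 1 (adjusted p = 0.0564) or 2 (0.0891), without arthritic node library 1 (0.125) or 3 (0.0873), or without the mean-variance trend (0.0716). Against control nodes P2rx7 was 3.02-fold lower (log2 fold change -1.59, SE 0.33, limma adjusted p = 0.0023), a call that held under every alternative run. The microRNA gene Mir8115 overlaps 1.99% of the exon bases of P2rx7.

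P2rx4 encodes a second ATP-gated channel, gated by lower concentrations of ATP than P2rx7 (chr5:122707544-122729738, plus strand). It was 755, 845 and 616 in synovial Tregs, 338, 333 and 471 in node Tregs of arthritic mice, and 509, 307 and 305 in those of control mice. The highest node value, in control library 1, stayed below the lowest synovial value. Means were 739 ± 116 in synovial Tregs, 381 ± 78.1 in node Tregs of arthritic mice and 374 ± 117 in those of control mice (SD, n = 3 each). P2rx4 was 1.95-fold higher in synovial than in arthritic node Tregs (log2 fold change 0.96, SE 0.24, limma adjusted p = 0.00867) and 2.02-fold higher than in control node Tregs (log2 fold change 1.01, adjusted p = 0.0055).

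The neighbouring channel genes thus differed in opposite directions. The ratio of P2rx4 to P2rx7, per kilobase of exon, was 2.73, 4.11 and 1.97 in synovial Tregs, 0.384, 1.12 and 0.763 in node Tregs of arthritic mice, and 0.695, 0.404 and 0.344 in those of control mice. It averaged 2.94 ± 1.08 in synovial Tregs, 0.756 ± 0.369 in node Tregs of arthritic mice and 0.481 ± 0.188 in those of control mice (SD, n = 3 each). P2rx4 exceeded P2rx7 in all 3 synovial libraries and in 1 node library of the arthritic mice, and was below it in the other node libraries. The other 5 P2X genes did not reach the filter on low values, and 2 of them had no read in any library.

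**Figure D2:**
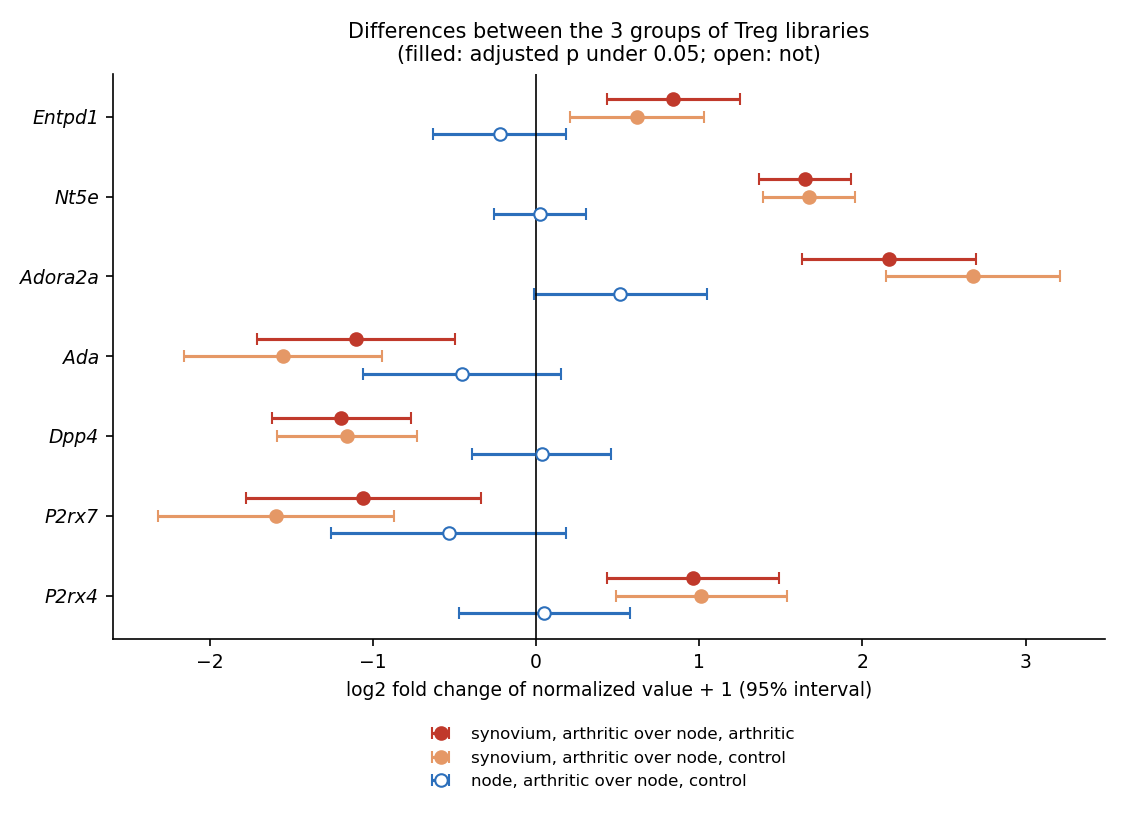
Log2 fold change of normalized value + 1 (x axis) for each of the 7 genes in 3 comparisons, with 95% intervals from the limma fit; filled points have an adjusted p under 0.05. Both comparisons with synovial Tregs are filled for every gene, from 2.68 for Adora2a to -1.59 for P2rx7, while arthritic against control node Tregs are open for every gene and their intervals include 0.

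Within the arthritic mice, each of the 7 genes differed between synovium and node in the same direction in 3 of 3 mice, as did 61.9% of all genes. For the 6 genes whose groups did not overlap that direction was already fixed, and only for P2rx7 could it have varied. The log2 ratio of synovium to node ranged from 0.66 to 0.95 for Entpd1, from 1.17 to 1.92 for Nt5e and from 1.84 to 2.39 for Adora2a. For P2rx4 it was 1.16 and 1.34 in mice 1 and 2 and only 0.39 in mouse 3. Among the genes that were lower, the ratio ranged from -1.35 to -0.92 for Ada, from -1.62 to -0.80 for Dpp4 and from -1.67 to -0.52 for P2rx7. The spread was smallest for Entpd1 (SD 0.16) and largest for P2rx7 (SD 0.58). With the mouse number as a replicate block, all 7 genes kept their calls.

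**Figure D3:**
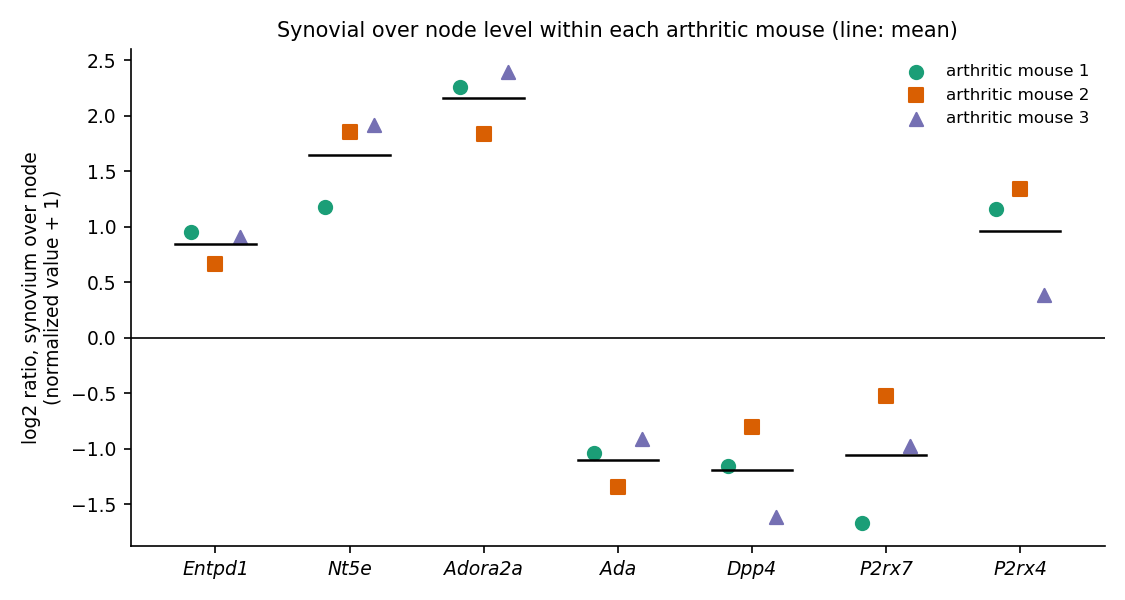
Log2 ratio of the synovial to the node level (normalized value + 1; y axis) of the 7 genes in arthritic mice 1, 2 and 3, paired by the mouse number in the titles; the line is the mean. All points of Entpd1, Nt5e, Adora2a and P2rx4 lie above 0 and all points of Ada, Dpp4 and P2rx7 below it, with P2rx4 of mouse 3 at 0.39.

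In node Tregs, arthritic set against control mice, none of the 7 genes passed the limma test, where 0.343% of all genes did. None of the 7 had an unadjusted p under 0.05, against 9.08% of all genes. On recovered reads edgeR and DESeq2 also called 0 of the 7, against 0.326% and 1.52% of all genes. Adora2a came nearest. Its lowest value in arthritic nodes, 631, was above the highest in control nodes, 597, and its log2 fold change was 0.52 (95% interval -0.016 to 1.05, limma adjusted p = 0.567). The libraries of these groups failed to overlap in 14.9% of all genes. The narrowest interval was that of Nt5e, whose log2 fold change was 0.025 (95% interval -0.26 to 0.31, limma adjusted p = 0.982). Entpd1 had a log2 fold change of -0.22 (-0.63 to 0.18), Ada of -0.45 (-1.06 to 0.16) and P2rx7 of -0.54 (-1.26 to 0.18). Nt5e, Dpp4 (at 0.035) and P2rx4 (at 0.051) took the opposite sign under some alternatives.

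Ordered by level per kilobase of exon, the 7 genes changed places between tissues. In synovial Tregs the order was Nt5e at 1643 normalized reads per kilobase, Adora2a at 1028, Entpd1 at 265, Dpp4 at 155, P2rx4 at 105, Ada at 55.5 and P2rx7 at 37.7. In node Tregs of arthritic mice it was Nt5e at 521, Dpp4 at 345, Adora2a at 224, Entpd1 at 148, Ada at 122, P2rx7 at 85.2 and P2rx4 at 54.2. In node Tregs of control mice Nt5e at 510 and Dpp4 at 342 again led, followed by Entpd1 at 171, Ada at 166, Adora2a at 162, P2rx7 at 113 and P2rx4 at 53.2. Among 10680 genes with an annotated length, Nt5e lay above 95.9% in synovial Tregs, 88.1% in node Tregs of arthritic mice and 87.9% in those of control mice. Adora2a lay above 93.2% in synovial Tregs, 75.3% in node Tregs of arthritic mice and 69.0% in those of control mice.

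Over the 9 libraries, with each gene standardised on the log2 scale, the closest pair among the 7 was Nt5e and Adora2a, with a root mean square difference of 0.337 SD, followed by Ada and Dpp4 at 0.492. The libraries share their groups, so this is a description only. Of all tested named genes, Tc2n, Gng4 and Hhex were nearest to Nt5e (0.0925 for Tc2n), each with no read in any node library. Nearest to Adora2a were Cox5a (0.0984), Tob2 and Sel1l, and nearest to Ada were Aven (0.137), Itm2a and D10Wsu52e. Klhl20 (0.147), Galnt10 and Cecr5 were nearest to Dpp4. Entpd1, P2rx4 and P2rx7 had looser nearest patterns, led by Slc35e2 (0.306), Ap3s1 (0.196) and Phpt1 (0.238).

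The wider purinergic system held 76 further genes in the table, of which 49 passed the filter and 12 had no read in any library. These genes too were listed with earlier results of these data known. Of the 49, 15 were higher and 13 lower in synovial than in arthritic node Tregs, where 17.9% of all genes were higher and 15.9% lower, with a median log2 fold change of 0.052, while the median of all genes was within 0.01 of 0. Against control nodes 15 were higher and 13 lower as well, where 21.6% of all genes were higher and 18.5% lower. Between arthritic and control node Tregs limma called none of the 49; 6 had an unadjusted p under 0.05, edgeR called 0 and DESeq2 called only Crem.

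The list of enzymes that break down extracellular nucleotides also holds relatives that may act elsewhere, such as Entpd7. Of its 9 other genes tested, 2 were higher and 2 lower in synovial than in arthritic node Tregs, a comparison in which 33.8% of all genes passed. Cd38, which consumes NAD and so limits ADP-ribosylation, was 1096, 813 and 1138 in synovial Tregs, 501, 281 and 266 in node Tregs of arthritic mice, and 381, 387 and 506 in those of control mice. Its log2 fold change against arthritic nodes was 1.58 (SE 0.25, limma adjusted p = 0.000431), with no overlap between the groups, as for 48.2% of all genes. Entpd7, an intracellular relative of Entpd1, was higher (0.91, limma adjusted p = 0.027), and Entpd5 (-1.26, adjusted p = 0.00466) and Enpp4 (-1.13, adjusted p = 0.0268) were lower. Entpd7 did not pass on leaving out synovial library 2 (limma adjusted p = 0.0833), synovial library 3 (0.0999), or library 1 (0.0681) or 2 (0.0775) of the arthritic nodes. With a weight for each library it did not pass either (limma adjusted p = 0.0634). Enpp4 did not pass with such weights (limma adjusted p = 0.0695), or on leaving out synovial library 3 (0.0855), or library 1 (0.101) or 3 (0.0722) of the arthritic nodes. Enpp1, a source of AMP from ATP, had a log2 fold change of 0.51 (limma adjusted p = 0.097).

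Of the other 3 adenosine receptors, Adora2b, the low-affinity receptor that also raises cyclic AMP, was detected only in synovial Tregs. It had 199, 176 and 262 normalized reads there and no read in any of the 6 node libraries, so it was at least 78.5-fold higher than in arthritic nodes and at least 75.4-fold higher than in control nodes, with the node groups set at 3 reads per library. Per kilobase, Adora2a still exceeded Adora2b in synovial Tregs by 9.76, 7.71 and 9.11 times. Adora3 did not reach the filter, and Adora1 had no read in any library.

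Of 9 other genes of adenosine removal and transport tested, 1 was higher and 2 were lower in synovial than in arthritic node Tregs, where 33.8% of all genes passed, and 1 was higher and 4 were lower than in control node Tregs, where 40.1% did. Pnp, the phosphorylase acting on inosine, had a log2 fold change of 0.82 (limma adjusted p = 0.00137), but 21.9% of its exon bases overlap predicted genes and a near-identical copy, Pnp2, lies nearby, so its count is uncertain. The nucleoside transporter Slc28a2 was lower, at 1237, 797 and 703 in synovial Tregs, against 1838, 1579 and 1515 in arthritic node Tregs (log2 fold change -0.89, limma adjusted p = 0.00288). The lysosomal transporter Slc29a3 was lower too (-1.24, adjusted p = 0.00692). Adenosine kinase (Adk) showed a log2 fold change of 0.052 (SE 0.13), and the surface transporter Slc29a1 one of -0.10 (SE 0.14). Against control nodes Slc29a1 was lower (-0.44, limma adjusted p = 0.0263), a call that did not hold without the mean-variance trend (adjusted p = 0.0729), or without any of the 3 synovial libraries or control library 2 or 3 (adjusted p from 0.053 to 0.0944). Adal, a relative of Ada, was also lower against control nodes (-1.34, limma adjusted p = 0.00712).

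Among genes of ATP release, the vesicular nucleotide transporter Slc17a9 had 227, 196 and 244 normalized reads in synovial Tregs, 1124, 943 and 1311 in node Tregs of arthritic mice, and 1298, 1436 and 1674 in those of control mice. It was 5.02-fold lower in synovial than in arthritic node Tregs (log2 fold change -2.33, SE 0.17, limma adjusted p = 9.42e-07). The channel gene Panx1 was higher, at 839, 724 and 670 in synovial Tregs, against 374, 436 and 453 in arthritic node Tregs (log2 fold change 0.82, limma adjusted p = 0.00249). Gja1, which encodes connexin 43, was at 51.8, 51.7 and 91.0 in synovial Tregs and at 6.09, 0 and 0 in arthritic node Tregs, a called difference (limma adjusted p = 0.0105). In control node Tregs Gja1 was at 35.1, 2.71 and 0. The limma call against control nodes did not hold without any of the 3 synovial libraries (adjusted p from 0.082 to 0.107). It was also lost with edgeR (adjusted p = 0.238) and DESeq2 (0.203). Among the 7 P2Y receptors only P2ry14, the receptor for UDP-sugars, passed the filter, and it was higher in synovial than in arthritic node Tregs (log2 fold change 1.74, SE 0.40, limma adjusted p = 0.00477).

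Genes that act with P2rx7 included the mouse ADP-ribosyltransferase Art2b, which encodes ART2.2. It was 79.3, 71.6 and 106 in synovial Tregs, 246, 329 and 372 in node Tregs of arthritic mice, and 527, 376 and 556 in those of control mice. Art2b was 3.66-fold lower in synovial than in arthritic node Tregs (log2 fold change -1.87, SE 0.27, limma adjusted p = 0.000244). These groups did not overlap, as for 48.2% of all genes. The node groups did not overlap either, as for 14.9% of all genes, but only by 372 against 376. Limma did not call Art2b between them. A related gene, Art2a-ps, could share reads with Art2b. It was at 132, 173 and 152 in synovial Tregs and at 114, 57.7 and 114 in arthritic node Tregs. Art4, listed as another ADP-ribosyltransferase gene, had no read in the synovial libraries and 150, 267 and 241 normalized reads in node Tregs of arthritic mice. It was thus at least 64.5-fold lower in synovial Tregs, and whether Art4 acts with P2rx7 was not tested. Among surface proteins that P2RX7 activation is known to shed, Il6ra was lower at the RNA level in synovial than in arthritic node Tregs (log2 fold change -2.21, limma adjusted p = 2.92e-06), and Cd27 had a log2 fold change of -0.36 (adjusted p = 0.0876). RNA levels do not measure shedding. The sheddase gene Adam17 had a log2 fold change of 0.39 (limma adjusted p = 0.0334), and this call was lost with quantile normalization (log2 fold change 0.18, adjusted p = 0.341), by edgeR (adjusted p = 0.062), with no mean-variance trend (0.0706), when mouse number entered as a block (0.0505) and without any of the 3 synovial libraries or arthritic node library 1 or 2 (adjusted p from 0.053 to 0.129).

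**Figure D4:**
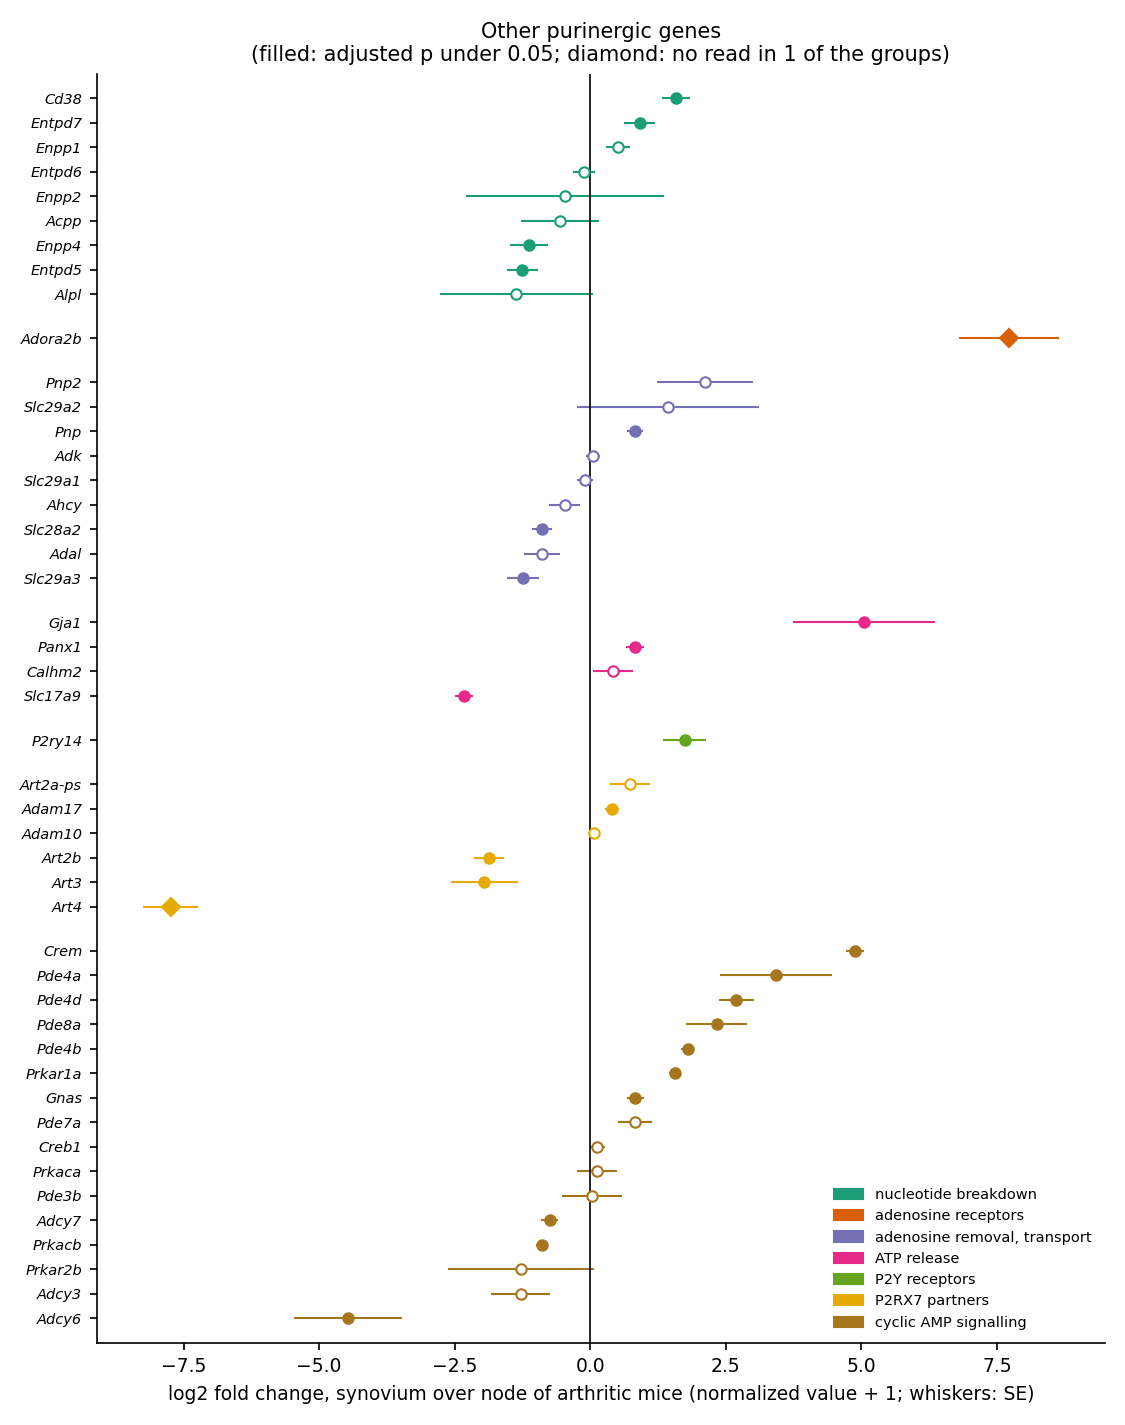
Log2 fold change of normalized value + 1 (x axis), synovial over node Tregs of arthritic mice, for 46 of the 49 other purinergic genes tested, without the surface proteins shed after P2RX7 activation, coloured and grouped by list; whiskers are SE, filled points have an adjusted p under 0.05, and the diamonds (Adora2b and Art4) have no read in 1 of the groups, so their plotted value depends on the added constant. Filled points lie on both sides of 0, 15 above and 11 below, with Crem at 4.88 and Slc17a9 at -2.33.

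Cyclic AMP signalling, the arm downstream of the Adora2a and Adora2b receptors, had 7 of 16 tested genes higher and 3 lower in synovial than in arthritic node Tregs, against 17.9% and 15.9% of all genes, with a median log2 fold change of 0.48. Crem, a cyclic AMP-responsive transcription factor gene whose short product ICER is induced by cyclic AMP, was 35472, 34007 and 28150 in synovial Tregs, 1029, 1357 and 950 in node Tregs of arthritic mice, and 757, 568 and 552 in those of control mice. Its log2 fold change was 4.88 against arthritic nodes (SE 0.16, limma adjusted p = 3.2e-09), and 8.01% of its exon bases overlap another gene. Between arthritic and control nodes the Crem values did not overlap either (log2 fold change 0.83), as for 14.9% of all genes. The limma adjusted p was 0.0679, which did not pass. It was 0.0423 without control library 1 and 0.00017 with DESeq2. The phosphodiesterase genes Pde4b (1.79, adjusted p = 2.65e-07), Pde4d (2.70, adjusted p = 4.87e-05), Pde8a (2.33, adjusted p = 0.00699) and Pde4a (3.42, adjusted p = 0.0221) were higher in synovial Tregs by limma; their products degrade cyclic AMP. Pde4a did not pass on leaving out synovial library 2 (limma adjusted p = 0.0587), synovial library 3 (0.079) or library 3 of the arthritic nodes (0.0801). Nor did it pass with no mean-variance trend (limma adjusted p = 0.0609). Also higher were Prkar1a (1.56, adjusted p = 4.26e-07), the regulatory subunit that holds protein kinase A inactive, and Gnas (0.83, adjusted p = 0.00139), the Gs alpha subunit, whose count is uncertain because 21.96% of its exon bases overlap genes on the other strand. The catalytic subunit gene Prkacb (-0.89, adjusted p = 4.24e-05) and the adenylyl cyclase gene Adcy7 (-0.75, adjusted p = 0.00262) were lower by limma. Adcy6, another adenylyl cyclase gene, was also called lower (limma adjusted p = 0.00446), at 0, 8.22 and 0 in synovial Tregs and at 20.0, 81.8 and 56.8 in arthritic node Tregs; its fitted fold change depends on the added constant and is not given. The digestion-sensitive genes were higher in the same synovial libraries, and their part in these values was not tested.

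Summed levels of the markers of other cells were compared between the groups. In libraries 1, 2 and 3, macrophage markers summed to 160, 314 and 79.8 in synovial Tregs and 365, 33.7 and 413 in node Tregs of arthritic mice. In node Tregs of control mice they summed to 268, 105 and 349. Adgre1 (listed as Emr1), Fcgr1 and Mertk were at 0 in all synovial libraries and Csf1r at most 1.10 there. Of the 3 macrophage markers tested, Cd14 was called higher in synovial than in arthritic node Tregs (limma adjusted p = 0.00516) and control node Tregs (0.001), and Lyz2 was called lower than in control node Tregs (0.0377). The B cell list summed to 272 to 372 in synovial Tregs, 445 to 690 in node Tregs of arthritic mice and 442 to 497 in those of control mice. The endothelial list, nearly all of it Pecam1, which T cells also express, summed to 1478 to 1741 in synovial Tregs, 2311 to 2967 in node Tregs of arthritic mice and 2806 to 3370 in those of control mice. The dendritic cell list summed to 899 to 1078 in synovial Tregs, 24.1 to 82.1 in node Tregs of arthritic mice and 38.1 to 62.1 in those of control mice, through Zbtb46 and Xcr1, both called higher in the synovium, while Itgax and Clec9a had no synovial read. The mast cell list summed to 667 to 1047 in synovial Tregs. Its sums were 52.0 to 130 in node Tregs of arthritic mice and 77.3 to 134 in those of control mice. The higher sums came through Kit and Hdc, both called higher in the synovium, with Mcpt4, Cma1 and Tpsb2 at 0 there. Cpa3 went the other way, at 4.41, 0 and 14.6 in synovial Tregs and 34.8, 16.4 and 35.8 in arthritic node Tregs. In control node Tregs Cpa3 was at 22.1, 37.9 and 59.3, and limma called it lower in the synovium than there. The part of all these markers in the differences of the 7 genes was not tested. Without synovial library 3, which had the highest fibroblast sum, all 7 kept their calls against arthritic nodes. Synovial libraries 1 and 2 also held fibroblast transcripts (sums of 78.2 and 34.1), and the part of such transcripts in these calls was not tested.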

How the data were processed

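RNA was extracted with Trizol and sequenced from directional libraries, per the labels' protocols. HISAT2, HTSeq, DESeq2 and the build mm10 are named, with no versions, in the submitters' processing notes. The authors deposited a normalized signal table, gene counts that each library's size factor had scaled, and a table of their comparison of synovial with arthritic node Tregs holding log2 fold changes, a Wald score and p-values; refitting its comparison gave the same log2 fold changes to within 1.4e-06 over 15134 genes. For the counting, a strand setting is not given in the sources used here.

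Normalized values were whole multiples of 1 read in 100% of entries within 0.01 in every library, which gave the depths. Genes with a mean of at least 10 were tested with limma 3.58.1 (R 4.3.3) on log2(value + 1), with a mean-variance trend, all 9 libraries in 1 fit, two-sided, with Benjamini-Hochberg adjustment and a threshold of 0.05; fold changes are on that scale and understate those of low genes. edgeR 4.0.16 and DESeq2 1.42.0 on recovered reads, other filters, scalings, pseudocounts and leaving out each library were alternatives. The limma step was tested on simulated data. Each library is labelled as coming from its own mouse and tissue, and synovial and arthritic node libraries with the same number are titled as the same mouse. Their deviations from the group means correlated at 0.02, 0.05 and 0.09. Same-numbered arthritic and control node libraries, from different animals, correlated at 0.005, 0.067 and 0.070. These values therefore cannot show the pairing, which rests on the titles. Control numbers name other animals. Positions and exon lengths are from GENCODE vM21 (GRCm38), and promoters from RefSeq.

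The members and lists were chosen with earlier results of these data known. All list members are counted, any tested one may be named (a few are not reported here), and likeness names the 3 genes with the smallest root mean square difference.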

Additional observations from a re-analysis of the deposited data

How the results depend on the processing

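Each call was recomputed under 18 alternatives. Against arthritic nodes, the calls of Entpd1, Nt5e, Adora2a, Ada, Dpp4 and P2rx4 held under all of them; P2rx7 lost its call under 5. Against control nodes, the calls other than that of Entpd1 held under all; Entpd1 lost its call under 4, namely without the mean-variance trend (adjusted p = 0.0571), with quantile normalization (0.0746), and without synovial library 1 (0.092) or control library 1 (0.0718). Leaving out a library gave 6 to 7 called members in both comparisons with synovial Tregs. Of the 49 other purinergic genes, leaving out a library gave 23 to 27 calls against arthritic nodes and 23 to 28 against control nodes, and 23 and 20 of the 28 calls held under every alternative that tested them. Between arthritic and control nodes, where no member was called, leaving out a library changed the sign of the log2 fold change for Nt5e (-0.059 to 0.086; without arthritic node library 1), Dpp4 (-0.079 to 0.20; without control library 1 or 3) and P2rx4 (-0.11 to 0.30; without arthritic node library 3 or control library 2 or 3), and library weights did so for Dpp4 (-0.020). There 1 other purinergic gene, Crem, was called with library weights, 1 with DESeq2, and 0 to 1 on leaving out a library.

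Over all genes, a requirement of at least 2-fold left 2146 calls against arthritic nodes and 2646 against control nodes. Leaving out a library gave 3039 to 3451 and 3823 to 4121. Quantile normalization moved the median of all genes by -0.12 and -0.13 and the split of calls to 1711 higher and 2344 lower against arthritic nodes (2034 and 1810 as reported) and to 1999 higher and 2747 lower against control nodes (2451 and 2100). Between arthritic and control nodes the 39 calls became 10 without the trend, 0 in a fit of these groups alone, 173 with DESeq2, and 0 to 66 on leaving out a library. The mouse number as a replicate block gave 7 of 7 members in both comparisons with synovial Tregs and 0 calls over all genes between node groups, where same numbers are different animals; among the other purinergic genes Adam17 lost its call against arthritic nodes. The cause of these changes was not tested.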
